A study of Mus musculus with 6 samples.

Results

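The genes described here are 41 genes of fatty acid oxidation and ketogenesis, given as a list by name and measured in the liver of GHRH-KO mice and littermate controls. By compartment, 18 act in mitochondria, 13 in peroxisomes and 2 in the making or signalling of ketone bodies (Bdh1 and Fgf21), while 8 stand upstream of or beside these routes. The samples were livers of 3 male GHRH-KO mice, in which Ghrh was disrupted in the whole body, and of 3 male littermates of normal genotype, labelled wild-type. All were on a mixed C57BL6 and 129SV background, 10 months old by the methods and fasted for 6 to 8 h, and each array held 1 animal. Values are listed in the order of replicates 1, 2 and 3 for controls and of replicates 4, 5 and 6 for GHRH-KO mice. Each gene was read from 1 probe set (a set of short probes for 1 transcript) on Affymetrix Mouse Genome 430 2.0 arrays, that with the highest mean, as an RMA value (robust multichip average) on the log2 scale. Of the 41 genes, 40 had a probe set assigned to 1 gene, and all 40 passed the filter on dim probe sets and were tested, among 12495 genes in all. Ucp2 had no probe set assigned to 1 gene, so its expression was not analysed here and it enters only the promoter search. A gene was called increased when limma gave FDR < 0.05 and a fold change above 1.5, and decreased when the fold change was below 0.67 at the same FDR.

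Fatty acids enter the mitochondrion as carnitine esters, are shortened in cycles of dehydrogenation, hydration, oxidation and thiolysis, and end as acetyl-CoA, which the fasted liver turns into ketone bodies for other organs. Peroxisomes shorten very long-chain and other unusual fatty acids first and hand the products on. The nuclear receptor PPARA, encoded by Ppara, binds fatty acids and activates many of these genes during fasting.

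Ghrh did not check the labels in this tissue, since its probe set lay near background in both groups, at 4.75 at most. Values of the arrays correlated at Pearson's r of 0.944 to 0.989 over probe sets, which are not independent replicates. GHRH-KO replicate 5 scattered most, with an interquartile range of deviations from the probe set median of 0.357. Control replicate 2 came next at 0.316, and the remaining arrays lay between 0.185 and 0.249. The liver identity of the samples was checked by hepatocyte markers such as Alb, whose list of 7 measured genes had a mean level of 13.8 to 14.0 on all 6 arrays. With 3 arrays per genotype the precision was limited by their number.

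Of the 40 members, 1 was increased, the peroxisomal transporter gene Abcd2, and 1 was decreased, the peroxisomal coenzyme A hydrolase gene Nudt7. Over all genes tested, 0.784% were increased and 0.96% were decreased by the same rule, so that the 2.5% of members called in each direction rest on 1 gene each. Below that threshold the members lay mostly on the higher side. The log2 fold change (GHRH-KO minus control) was positive for 31 of 40 members, or 77.5%, against 50.5% of all genes. The median log2 fold change of the members was 0.22, beside 0.00 over all genes. At an unadjusted p below 0.05, 11 members were higher in GHRH-KO mice, or 27.5%, where 9.16% of all genes were. Only Nudt7 was lower at that level, where 10.1% of all genes were lower. In 14 members, or 35.0%, all GHRH-KO values lay above all control values, compared with 12.7% of all genes, and in 1 member all lay below, compared with 15.7%. These counts describe the list, whose genes were read on the same 6 arrays and are not independent of each other. In whole tissue, fewer cells of a type and less RNA per cell cannot be told apart.

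**Figure D1:**
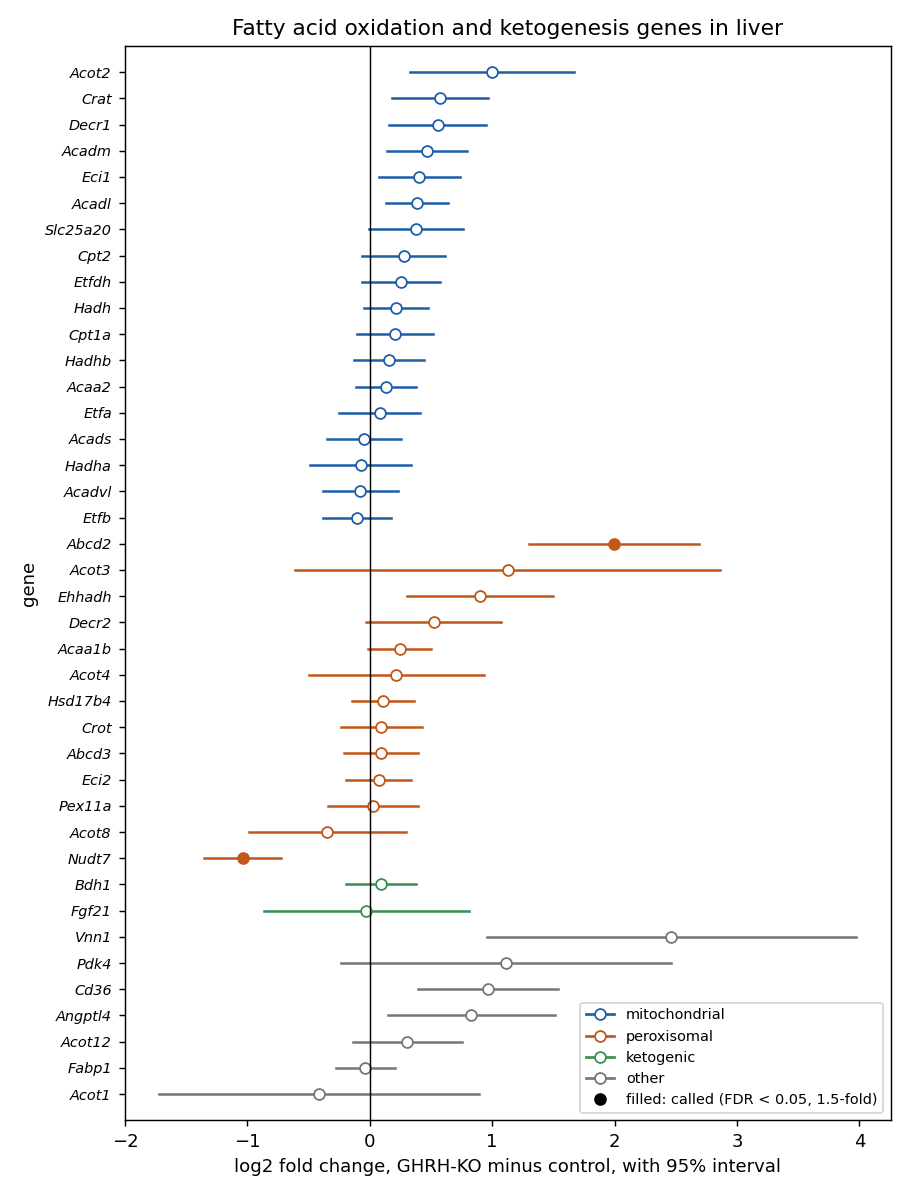
Log2 fold change of each of the 40 members (x axis, GHRH-KO minus control, log2) with its 95% interval from limma (horizontal line), grouped by compartment in colour. Filled points mark the 2 called genes, Abcd2 at 1.99 and Nudt7 at -1.04, and 31 of the 40 points lie above 0.

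The plot of fold changes shows where the members differed among themselves. Mitochondrial members lay in a narrow band from -0.10 to 1.0 with a median of 0.24, and none of 18 was called. Peroxisomal members held both called genes and spanned -1.04 to 1.99, with a median of 0.11. The 7 measured members outside these compartments had the highest median, 0.83, and a wide spread from -0.41 to 2.46, but none of them was called.

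Peroxisomal oxidation begins with import. Abcd2, an ABC transporter that carries very long-chain fatty acyl-CoA into the peroxisome, read 5.83, 5.04 and 5.53 in controls and 6.97, 7.43 and 7.98 in GHRH-KO mice. The groups were more than 1 log2 unit apart at their nearest values. Expression was increased 3.98-fold (log2 fold change 1.99, standard error 0.30, 95% interval 1.30 to 2.69, adjusted p = 0.0273 from limma). The control values were dim, since the lowest mean of a tested probe set was 4.63. Of all genes tested, 33.1% had a lower mean than Abcd2. All 3 Abcd2 probe sets that passed the filter were called, with log2 fold changes of 1.99 to 2.81. The related transporter Abcd3 stayed at 12.3 to 12.7 on the 6 arrays, with a log2 fold change of 0.09 (95% interval -0.21 to 0.40).

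Nudt7, a peroxisomal hydrolase that cleaves coenzyme A and its esters, read 13.11, 13.07 and 13.18 in controls and 12.22, 11.85 and 12.17 in GHRH-KO mice. The controls lay close together and all GHRH-KO values lay below them. Expression was decreased 2.05-fold (log2 fold change -1.04, standard error 0.13, 95% interval -1.35 to -0.72, adjusted p = 0.0173 from limma). The 4 probe sets of Nudt7 had log2 fold changes of -1.72 to -0.59, each with separate groups, and 2 of them were called. Both calls were lost when single arrays were left out. Without control replicate 2 the adjusted p from limma was 0.0978 for Abcd2 (log2 fold change 1.78) and 0.0683 for Nudt7 (-1.06). It was 0.0959 and 0.0775 without control replicate 3, and 0.07 and 0.0632 without GHRH-KO replicate 6. The Abcd2 call was also lost without GHRH-KO replicate 5 (adjusted p = 0.0604 from limma) and the Nudt7 call without control replicate 1 (adjusted p = 0.0563 from limma).

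**Figure D2:**
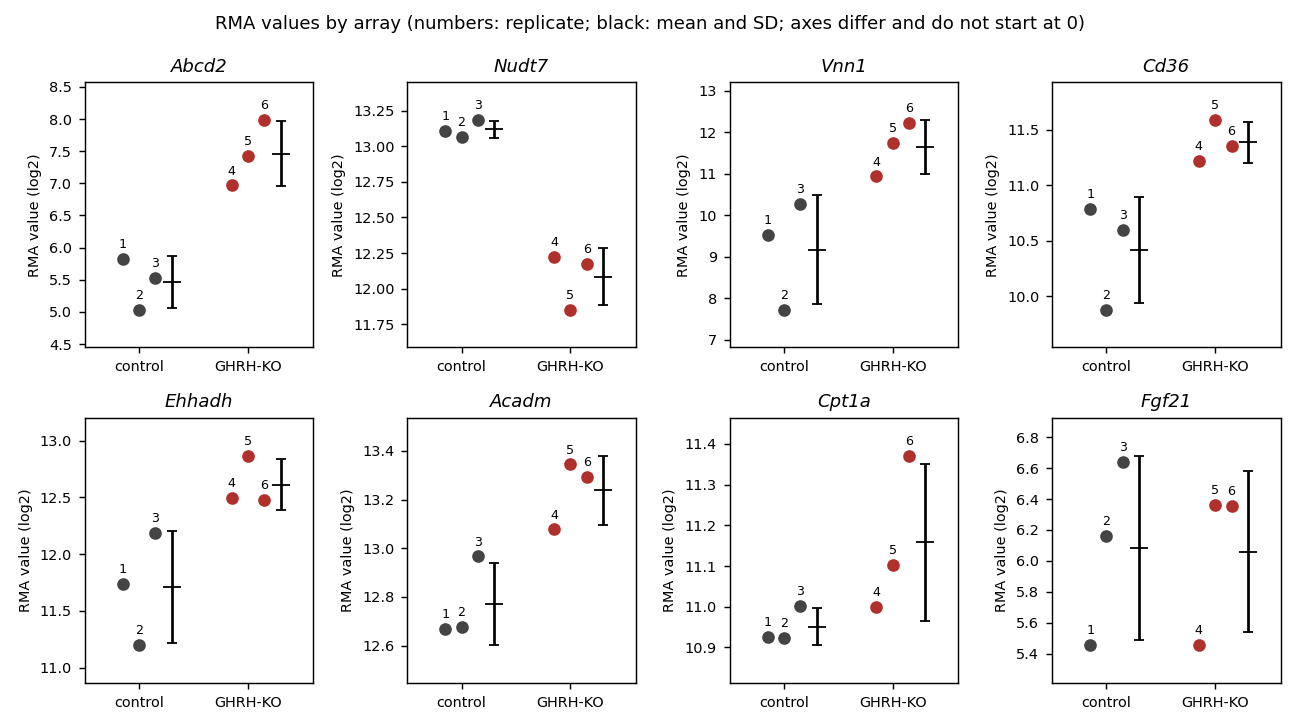
RMA values (y axis, log2, a separate scale for each gene) of 8 members on the 6 arrays, with the replicate number at each point and the group mean with its SD (n = 3) in black. The groups are apart for Abcd2, Nudt7, Vnn1, Cd36, Ehhadh and Acadm and overlap for Cpt1a and Fgf21.

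The plot of values by array also shows Ehhadh, the bifunctional enzyme that hydrates and dehydrogenates acyl-CoA in the classical peroxisomal route. It read 11.74, 11.20 and 12.18 in controls and 12.49, 12.87 and 12.47 in GHRH-KO mice. The groups did not overlap, and the log2 fold change of 0.90 (standard error 0.25, 95% interval 0.31 to 1.5) did not pass the test (adjusted p = 0.14 from limma). Acaa1b, the thiolase that closes the peroxisomal cycle, had separate groups too, 13.57 to 13.76 in controls and 13.86 to 13.97 in GHRH-KO mice, but the step was small (log2 fold change 0.24, 95% interval -0.01 to 0.50). Hsd17b4, the bifunctional enzyme for branched and very long chains, had a log2 fold change of 0.11 (95% interval -0.14 to 0.36). Its second probe set gave 0.48 with separate groups (adjusted p = 0.183 from limma).

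Among the peroxisomal thioesterases, which release free fatty acids from coenzyme A, Acot3 varied widely between arrays of the same group. Acot3 read 7.41, 5.79 and 8.13 in controls and 6.94, 9.31 and 8.45 in GHRH-KO mice. Its log2 fold change of 1.13 had an interval of -0.61 to 2.86, and it was -0.071 without control replicate 2 and GHRH-KO replicate 5. Acot8 read 9.04, 8.91 and 8.94 in controls against 8.91, 7.94 and 8.99 in GHRH-KO mice. Only GHRH-KO replicate 5 lay apart from the other arrays, and the log2 fold change of -0.35 was -0.0090 without it. Acot2, Acot1, Acot4 and Acot3 are neighbours in this order on chromosome 12, and since these genes are close copies of each other their probe sets may share transcripts. The other 6 peroxisomal members (Abcd3, Decr2, Eci2, Crot, Acot4 and Pex11a) had overlapping groups and log2 fold changes of 0.03 to 0.52. For Abcd3 and for Crot the 2 probe sets that passed the filter differed in sign.

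In mitochondria the carnitine shuttle comes first. Cpt1a, the carnitine palmitoyltransferase of the outer membrane and the controlled step of entry, read 10.93, 10.92 and 11.00 in controls and 11.00, 11.10 and 11.37 in GHRH-KO mice. The groups overlapped on this probe set (log2 fold change 0.21, 95% interval -0.10 to 0.51), and without GHRH-KO replicate 6 the log2 fold change was 0.10. Its other probe sets gave 0.59 and 0.79 with separate groups, and neither passed the test (adjusted p = 0.108 and 0.142 from limma). Cpt2, its partner on the inner membrane, had a log2 fold change of 0.28 (95% interval -0.06 to 0.62). Crat, which moves acetyl groups between carnitine and coenzyme A, read 7.73, 8.05 and 7.90 in controls against 8.20, 8.73 and 8.49 in GHRH-KO mice. The groups were apart (log2 fold change 0.58, standard error 0.17, adjusted p = 0.148 from limma). Another Crat probe set read 7.07, 7.33 and 7.08 in controls and 7.84, 8.03 and 8.06 in GHRH-KO mice and passed the test (log2 fold change 0.81, adjusted p = 0.0323 from limma). When each gene was read from its probe set with the lowest p, Abcd2 and Crat were thus the increased members, with 1.02% of all genes increased. Nudt7 remained the decreased member, with 1.22% of all genes decreased.

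The acyl-CoA dehydrogenases, which carry out the first reaction of each cycle, differ in the chain length they accept. Acadm, for medium chains, read 12.67, 12.68 and 12.97 in controls and 13.08, 13.34 and 13.29 in GHRH-KO mice (log2 fold change 0.47, 95% interval 0.14 to 0.79, adjusted p = 0.153 from limma). Acadl, for long chains, read 11.59, 11.59 and 11.74 in controls and 12.06, 12.04 and 11.99 in GHRH-KO mice (log2 fold change 0.39, 95% interval 0.14 to 0.64, adjusted p = 0.136 from limma). Both had separate groups without passing the test. Acadvl, for very long chains, had overlapping groups and a log2 fold change of -0.08 (95% interval -0.38 to 0.23), which was 0.02 without GHRH-KO replicate 5. The differences between these enzymes were not tested.

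Of the auxiliary enzymes of unsaturated fatty acids, the mitochondrial Decr1 and Eci1 had separate groups and the peroxisomal Decr2 and Eci2 did not. In Decr2 only GHRH-KO replicate 5 lay among the controls. GHRH-KO replicates 4 and 6 read 10.82 and 11.01 for Decr2, above the highest control at 10.24. The log2 fold change of Decr2 was 0.52 (adjusted p = 0.297 from limma), between those of Eci1 and Decr1, and that of Eci2 was 0.07. A difference between the compartments was not tested. All GHRH-KO values lay above all control values in 12.7% of all genes. Decr1, the dienoyl-CoA reductase, read 11.09, 10.89 and 11.39 in controls and 11.63, 11.89 and 11.52 in GHRH-KO mice (log2 fold change 0.56, 95% interval 0.16 to 0.95, adjusted p = 0.16 from limma). Eci1, the enoyl-CoA isomerase, ran from 11.23 to 11.50 in controls and from 11.54 to 11.89 in GHRH-KO mice (log2 fold change 0.41, adjusted p = 0.204 from limma). Acot2, the thioesterase of the mitochondrial matrix, had the highest log2 fold change of the mitochondrial members. It read 8.05, 7.43 and 8.17 in controls and 8.35, 9.27 and 9.02 in GHRH-KO mice, a log2 fold change of 1.0 (standard error 0.29, 95% interval 0.33 to 1.67, adjusted p = 0.146 from limma). GHRH-KO replicate 4 lay just above the highest control, and the other GHRH-KO arrays lay further up.

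For the enzymes of the later steps the differences were small on the probe sets with the highest mean. Hadha, the hydratase and dehydrogenase subunit of the trifunctional protein, read 10.69, 10.63 and 10.91 in controls and 10.75, 10.33 and 10.92 in GHRH-KO mice, with a log2 fold change of -0.07 (95% interval -0.49 to 0.34). Its partner Hadhb, the thiolase subunit, had a log2 fold change of 0.16 (95% interval -0.13 to 0.44). Hadh, the short-chain dehydrogenase, had separate groups and a log2 fold change of 0.21 (95% interval -0.05 to 0.47). Its other probe sets also had separate groups and gave 0.53 and 0.63 (adjusted p = 0.153 and 0.0599 from limma). Acaa2, the mitochondrial thiolase, had groups that were just apart (12.90 to 12.97 and 13.03 to 13.14, log2 fold change 0.13). Another Acaa2 probe set gave -1.16, where GHRH-KO replicate 5 alone read 8.35 against 11.3 to 12.3 on the other arrays. Etfb, a subunit of the flavoprotein that takes up the electrons, had the lowest log2 fold change of the mitochondrial members, -0.10 (95% interval -0.38 to 0.18). The remaining 5 mitochondrial members (Slc25a20, Acads, Hadhb, Etfa and Etfdh) had overlapping groups and log2 fold changes of -0.05 to 0.38.

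Neither ketogenic member differed beyond the spread of its replicates. Bdh1, which interconverts acetoacetate and 3-hydroxybutyrate, read 12.07, 12.00 and 12.17 in controls and 12.12, 12.08 and 12.32 in GHRH-KO mice (log2 fold change 0.09, 95% interval -0.19 to 0.37). A second Bdh1 probe set gave -0.18 and read 8.76, 9.10 and 9.58 in controls and 9.63, 7.61 and 9.66 in GHRH-KO mice. There GHRH-KO replicate 5 alone lay below the controls, and the other GHRH-KO arrays lay above them. Fgf21, the fasting hormone of the liver, read 5.46, 6.16 and 6.64 in controls and 5.46, 6.36 and 6.36 in GHRH-KO mice. Its groups overlapped fully, and the interval of its log2 fold change of -0.03 ran from -0.86 to 0.81, which leaves room for a difference of more than 1.5-fold either way.

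Genes of fatty acid supply and fuel choice included the widest difference among members that were not called. Vnn1, a pantetheinase of the coenzyme A cycle, read 9.51, 7.72 and 10.27 in controls and 10.93, 11.74 and 12.23 in GHRH-KO mice. Its log2 fold change of 2.46 was above that of Abcd2, but the controls alone spanned more than 2 log2 units (standard error 0.64, 95% interval 0.96 to 3.97, adjusted p = 0.121 from limma). Cd36, a fatty acid uptake receptor, read 10.78, 9.88 and 10.59 in controls and 11.22, 11.58 and 11.35 in GHRH-KO mice (log2 fold change 0.97, 95% interval 0.40 to 1.54, adjusted p = 0.111 from limma). Angptl4, a secreted inhibitor of lipoprotein lipase, read 9.70, 9.98 and 9.61 in controls and 10.20, 11.29 and 10.29 in GHRH-KO mice (log2 fold change 0.83, 95% interval 0.15 to 1.52, adjusted p = 0.205 from limma), which was 0.48 without GHRH-KO replicate 5. All 3 had groups that did not overlap.

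Pdk4, the kinase that shuts off pyruvate dehydrogenase, read 6.62, 5.63 and 5.65 in controls and 6.53, 8.43 and 6.28 in GHRH-KO mice. Replicate 5 alone stood above all controls, and the log2 fold change of 1.12 (95% interval -0.23 to 2.46) was 0.44 without it. Acot1, the cytosolic thioesterase, read 7.53, 7.24 and 8.42 in controls and 6.27, 8.48 and 7.20 in GHRH-KO mice, so the groups overlapped and the log2 fold change of -0.41 had an interval of -1.72 to 0.89. Fabp1, the fatty acid binding protein of hepatocytes, was the most even member, at 14.15 to 14.26 on all arrays (log2 fold change -0.04, 95% interval -0.27 to 0.20). The highest value of any probe set was 14.7, so Fabp1 was read near the top of the scale.

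**Figure D3:**
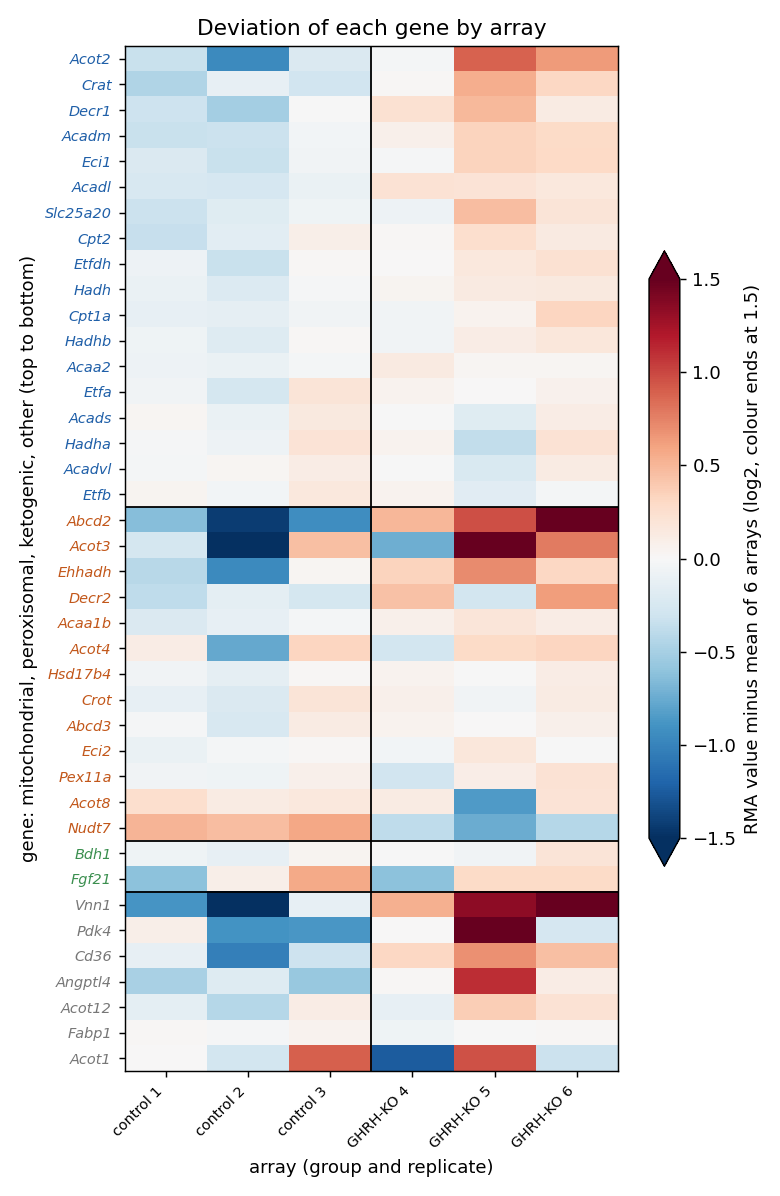
Deviation of each member (rows, grouped by compartment and ordered by log2 fold change) from its mean over the 6 arrays (columns), in log2 units, with colours cut off at 1.5. Control replicate 2 is the lowest array for 22 of the 40 members, and GHRH-KO replicate 5 is the highest for 16.

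The deviations by array show that neither group was a uniform block. The mean deviation over all 40 members was -0.17, -0.38 and 0.02 in controls and -0.01, 0.29 and 0.25 in GHRH-KO mice. Control replicate 3 thus lay slightly above GHRH-KO replicate 4. Over all genes tested the same means lay between -0.04 and 0.04. Control replicate 2 was the lowest of the 6 arrays in 22 members, or 55.0%, where it was lowest in 24.8% of all genes. GHRH-KO replicate 5 was the highest in 16 members, or 40%, beside 28.4% of all genes, and GHRH-KO replicate 6 was lowest in 0 of them. The difference of the group means of these deviations was 0.35, and without control replicate 2 and GHRH-KO replicate 5 it was 0.19. Without those arrays 8 members were higher at an unadjusted p below 0.05 in limma, beside 6.24% of all genes, and 7 of the 8 were among the 11 of the full set of arrays. All GHRH-KO values lay above all control values in 16 members, beside 20.7% of all genes in this smaller design. No member was called, and over all genes 42 were increased and 64 decreased. The log2 fold change was then 0.52 for Ehhadh, 0.58 for Acot2 and 0.60 for Cd36.

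**Figure D4:**
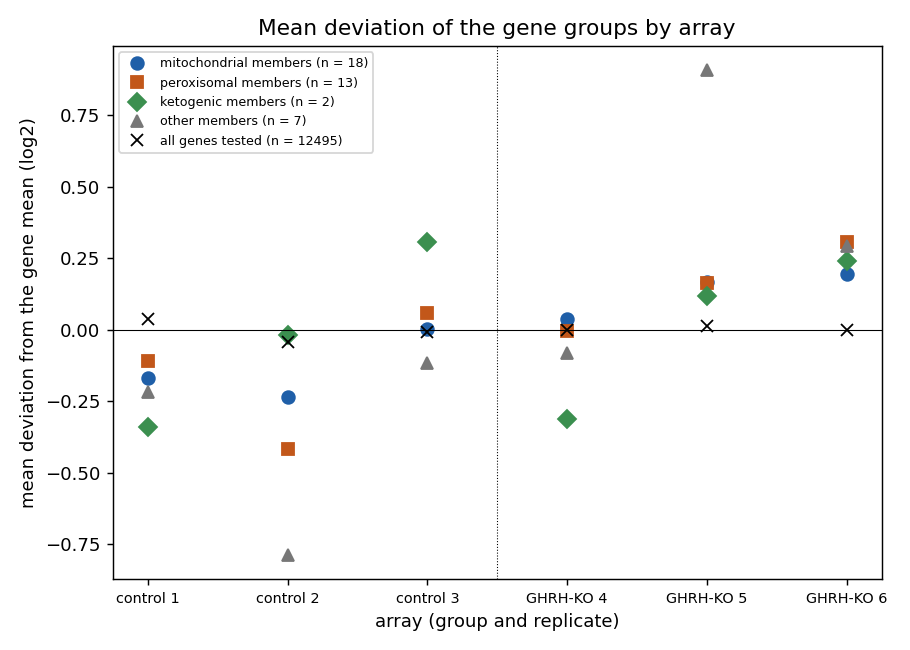
Mean deviation from the gene mean (y axis, log2) for each group of members and for all 12495 genes tested, by array (x axis). Controls reach from -0.79 to 0.31 and GHRH-KO arrays from -0.31 to 0.91, and crosses for all genes stay near 0.

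By compartment, the mitochondrial members gave means of -0.17, -0.24 and 0.00 in controls and 0.04, 0.17 and 0.20 in GHRH-KO mice, a narrow but complete separation. The peroxisomal members gave -0.11, -0.42 and 0.06 in controls and -0.01, 0.16 and 0.31 in GHRH-KO mice, with overlap. The members outside these compartments had the widest swings, -0.79 in control replicate 2 and 0.91 in GHRH-KO replicate 5. The 2 ketogenic members followed another order, with both groups reaching from about -0.3 to above 0.2. Beyond leaving them out, the part of the arrays that scattered most in these means was not tested.

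Other genes of these routes, from 5 lists, lay on both sides. None of 78 tested was called, where 0.784% of all genes were increased and 0.96% decreased. The median log2 fold change of the 78 was -0.02. At an unadjusted p below 0.05 in limma 12 of the 78 lay higher, where 9.16% of all genes did, and 8 lower, where 10.1% did. Both shares also stand beside the counts of each list at that level. Among 16 regulators of PPARA activity the median was 0.20, and 3 were higher at that level and 0 lower. Ppara itself read 10.06, 10.48 and 10.61 in controls and 10.72, 10.95 and 10.91 in GHRH-KO mice, with separate groups and no call (log2 fold change 0.48, 95% interval 0.09 to 0.87, adjusted p = 0.202 from limma). Of 20 other PPARA target genes, 3 were higher and 1 was lower, with a median of -0.01. Of 21 other oxidation enzymes, 4 were higher and 3 lower (median -0.03). Of 6 ketone body genes, 1 was higher and 2 were lower (median -0.30), and of 15 genes of peroxisome biogenesis 1 was higher and 2 were lower (median -0.12).

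Markers of other cells gave no call among 10 genes of Kupffer cells or macrophages, 7 of endothelial cells and 2 of muscle. The mean level of the Kupffer cell list was 7.71 to 9.06 in controls and 7.69 to 9.09 in GHRH-KO mice, and that of the endothelial list was 7.80 to 8.20 and 7.94 to 8.10. The median log2 fold change of the Kupffer cell list was 0.37, with 8 genes positive and 2 negative, where 50.5% of all genes were positive. In 1 gene of that list all GHRH-KO values lay above all control values, where 12.7% of all genes did, and in 0 all lay below. Of the adipocyte list 2 genes were tested, and Lpl, lipoprotein lipase, was increased (6.61 to 8.02 in controls and 9.24 to 9.74 in GHRH-KO mice, log2 fold change 1.99, adjusted p = 0.0491 from limma). The defining adipocyte genes Adipoq and Lep lay below the filter on dim probe sets. The part of these cells in the values of the members was not tested.

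The promoters of the members were searched for a repeat of the hexamer AGGTCA with 1 base between the copies, the arrangement PPARA is known to bind with its partner receptor RXR. The window ran from 250 bases before to 50 after the RefSeq start site (GRCm38.p6), on both strands, and up to 2 mismatches in the 12 fixed letters were allowed. Of 34 members in the RefSeq promoter table, 6 held such a repeat, or 17.6%, and of all 27025 genes 4.4% did. With at most 1 mismatch there were 2 members, or 5.88%, against 0.644% of all genes. The 6 windows are shown because they carry the only matches among the members, each 5′ to 3′ on the strand of the gene, with the repeat in capitals. The first 5 hold it on the opposite strand.
Acot12, chr13:91741403-91741431 (+): taggacccTGACCTCTCACCTcctaagca
Acot4, chr12:84038358-84038378 (+): ccgaagcaTGACCTTTGGCCG
Cd36, chr5:17835939-17835967 (-): tggttctcTGGCCTCTGACTTacttggat
Etfa, chr9:55512300-55512328 (-): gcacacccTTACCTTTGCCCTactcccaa
Fabp1, chr6:71199804-71199832 (+): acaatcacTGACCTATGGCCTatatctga
Slc25a20, chr9:108662142-108662154 (+): AGGTGAAAGGTCG
The repeats of Acot12 and Fabp1 have 1 mismatch and the other 4 have 2. Of these 6 genes only Cd36 had all GHRH-KO values above all control values, where 35.0% of members and 12.7% of all genes did. The log2 fold changes of the others were 0.31 for Acot12, 0.22 for Acot4, 0.08 for Etfa, -0.04 for Fabp1 and 0.38 for Slc25a20. A match describes letters and not a bound site. Abcd2, Crat, Vnn1, Angptl4, Decr1, Hsd17b4 and Acaa2 were not searched.

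Promoters of Nudt7 and of the Hadha and Hadhb pair are shown because the first belongs to the decreased member and because the start sites of the latter genes lie 272 bases apart in opposite directions, so that the same stretch precedes both subunits of 1 enzyme. Each run gives the 250 bases before the start site of Nudt7 or of Hadhb, with no letters in capitals, and neither window held the repeat within 2 mismatches.
Nudt7, chr8:114133324-114133573 (+): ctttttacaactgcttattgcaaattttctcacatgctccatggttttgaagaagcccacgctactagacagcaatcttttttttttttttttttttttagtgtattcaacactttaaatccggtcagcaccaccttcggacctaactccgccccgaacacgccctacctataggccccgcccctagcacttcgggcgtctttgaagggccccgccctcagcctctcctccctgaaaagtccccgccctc
Hadhb, chr5:30155003-30155252 (+): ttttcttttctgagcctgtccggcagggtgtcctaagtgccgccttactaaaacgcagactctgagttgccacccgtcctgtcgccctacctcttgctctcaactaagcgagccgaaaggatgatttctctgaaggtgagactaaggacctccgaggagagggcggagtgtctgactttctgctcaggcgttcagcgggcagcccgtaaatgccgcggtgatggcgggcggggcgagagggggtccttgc
The GC content of these runs was 49.2% for Nudt7 and 58.8% for Hadhb, and the median over the same 250 bases of all promoters was 52.4%. Hadha and Hadhb, which share this stretch, both had overlapping groups and intervals that include 0, and the difference between them was not tested.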

How the data were processed

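Liver RNA of 6 animals was hybridized to 1-colour Affymetrix arrays. The authors processed the arrays by RMA and deposited log2 values for 45101 probe sets; the software version is not given in the sources used here. RMA corrects background, quantile-normalizes the arrays and summarises the probes of a set, so differences common to all genes are removed. The values ran from 2.53 to 14.7. Of the probe sets, 64 were controls, 34958 had 1 gene, 932 several and 9211 none in the platform annotation. The detection filter of the methods cannot be repeated from RMA values, so the 56% of probe sets with the highest mean (25221, 21440 of them with 1 gene, lowest mean 4.63) were tested.

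The contrast of GHRH-KO with control was tested in limma (version 3.58.1, R 4.3.3) by lmFit and eBayes, and Benjamini-Hochberg adjustment ran over all probe sets tested. Each gene was read from its probe set with the highest mean. The members and lists were chosen with earlier results of these data known. Genes are named if called, if among the 5 largest log2 fold changes in each direction, if their groups do not overlap, or for their role (Cpt1a, Cpt2, Acadm, Hadha, Acaa2, Ehhadh, Hsd17b4, Bdh1, Fgf21, Pdk4, Cd36, Fabp1 and Ppara). Members outside this rule are named only beside their range, their promoter or a related member, and Lpl as a called marker. Groups were taken from the sample titles. Plots were made in Python 3.11.15 (matplotlib 3.10.9). Alternatives were no filter, a filter at 30%, the lowest p or no _s_at or _x_at probe sets, centring, quantile normalization, array weights, a trended and robust variance, and leaving out arrays.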

Additional observations from a re-analysis of the deposited data

How the results depend on the processing

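Each result was computed under 15 alternatives. Of 430 pairs of a named gene and an alternative, 404 kept their direction and side of the threshold. Of the 29 genes in these pairs only Abcd2 and Nudt7 were called, so most pairs had no call to lose. The 10 pairs that lost a call all belonged to Abcd2 and Nudt7. Of the members, 0 were increased with the 30% filter, which leaves out Abcd2, and 2 with the lowest p or without _s_at and _x_at probe sets, the second being Crat. With the lowest p the median log2 fold change was 0.38 for mitochondrial, 0.27 for peroxisomal and 0.32 for all members. In that setting 2 members were lower at an unadjusted p below 0.05 in limma, beside 13.6% of all genes, and 2 lay all below, beside 19.9%. Without control replicate 2 and GHRH-KO replicate 5 there were 0 increased and 0 decreased, and the adjusted p from limma was 0.134 for Abcd2 and 0.0517 for Nudt7. In that design 2 members were lower at an unadjusted p below 0.05 in limma, beside 9.41% of all genes, and 2 lay all below, beside 29.4%. Leaving out 1 array gave 0 to 1 increased and 0 to 1 decreased members and a peroxisomal median of 0.07 to 0.22. All above were 14 to 25 members (25 without control replicate 3, beside 18.3% of all genes in that design, and 22 without GHRH-KO replicate 4, beside 19.7%). All below were 1 to 2 members (2 without GHRH-KO replicate 5, beside 21.3% of all genes in that design). Lower at an unadjusted p below 0.05 in limma were 1 to 2 members (2 without GHRH-KO replicate 5, beside 8.99%). Without control replicate 2 and GHRH-KO replicate 5 the peroxisomal median was 0.014 and that of all members 0.12. Over all genes 98 were increased and 120 decreased, against 249 and 288 with array weights, and 36 to 93 and 46 to 95 with 1 array left out.

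Some directions turned, and the cause was not tested. Acaa2 was at -0.12 without _s_at and _x_at probe sets. With array weights Acadvl was at 0.019, Hadha at 0.055 and Fgf21 at 0.037. Without control replicate 2 and GHRH-KO replicate 5 Acadvl was at 0.017, Hadha at 0.036 and Acot3 at -0.071, while Acot1 was at -1.24. Leaving out 1 array gave -0.16 to 0.020 for Acadvl, -0.20 to 0.094 for Hadha, 0.47 to 1.77 for Acot3, -0.34 to 0.27 for Fgf21 and -0.99 to 0.11 for Acot1. Counts at an unadjusted p, counts of separate groups and the median of all members were added as results after the data were seen. No paired analysis was possible because the groups share no replicate numbers.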

Other observations

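Among genes of these routes outside the list of members, some lay apart between the groups without a call. They were chosen after their values were seen. Ppargc1a, a coactivator of PPARA and of mitochondrial biogenesis, read 7.54, 7.20 and 6.98 in controls and 8.25, 8.67 and 8.10 in GHRH-KO mice (log2 fold change 1.10, 95% interval 0.62 to 1.58, adjusted p = 0.0561 from limma). Pparg, the receptor best known from fat tissue, read 7.30, 6.52 and 7.01 in controls and 7.82, 8.24 and 7.89 in GHRH-KO mice (log2 fold change 1.04, adjusted p = 0.0778 from limma). Krt23 came from the list of other PPARA target genes and not from that of oxidation enzymes. It read 5.52, 5.16 and 6.44 in controls and 7.31, 9.03 and 8.97 in GHRH-KO mice (log2 fold change 2.73, adjusted p = 0.0599 from limma).

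Cyp4a14, an omega-hydroxylase of fatty acids, split the controls. It read 6.50, 5.09 and 11.16 in controls and 11.96, 12.04 and 10.54 in GHRH-KO mice (log2 fold change 3.93, 95% interval 0.59 to 7.28, adjusted p = 0.216 from limma). Control replicate 3, also the control with the highest mean deviation of the members, lay among the GHRH-KO values. On the lower side, Slc16a6, a transporter of ketone bodies, read 7.33, 7.30 and 7.05 in controls and 6.36, 5.53 and 6.30 in GHRH-KO mice (log2 fold change -1.16, adjusted p = 0.0695 from limma). Acacb, whose product malonyl-CoA restrains Cpt1a, read 8.58, 7.89 and 7.48 in controls and 7.25, 6.83 and 6.33 in GHRH-KO mice (log2 fold change -1.18, adjusted p = 0.138 from limma), also with separate groups.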
